A study of Homo sapiens with 6 samples.

Results

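The E2F transcription factors and the retinoblastoma (RB) family of pocket proteins were followed at the RNA level as 10 genes, E2F1 to E2F8, RB1 and RBL1. They were chosen by gene symbol and are 10 of the 57820 rows of the count table. All 10 had a row, at least 742 counts in every library, and passed the filter on low counts. The cells were HEK293T, derived from human embryonic kidney and expressing large T antigen of the virus SV40. All cells received RfxCas13d, an RNA-guided nuclease that cuts RNA matched by its crRNA, and poly(A) RNA was sequenced. The control group of 3 libraries carried a non-targeting crRNA, and the other group of 3 libraries carried a crRNA against mCherry, a red fluorescent protein gene foreign to the human genome. The labels call the libraries biological replicates and say no more of their origin, so p-values measure the spread between these libraries.

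E2F factors bind promoters of genes for DNA replication and mitosis. E2F1, E2F2 and E2F3 are known mainly as activators, E2F4 and E2F5 as repressors that work with pocket proteins, E2F6 as a repressor without a pocket protein partner, and E2F7 and E2F8 as atypical repressors that bind without a DP partner. The pocket proteins pRB (gene RB1), p107 (RBL1) and p130 (RBL2) hold E2Fs until cyclin-dependent kinases phosphorylate them. SV40 large T antigen binds the pocket proteins and frees E2Fs from them, and the line carries it in both groups. A row for large T antigen was not analysed here.

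Several of these genes are known as E2F targets themselves. RefSeq promoter windows on GRCh38.p14, from 250 bases before to 50 after a start, were found for 8 of the 10 genes. The table used here gave no window for E2F5 or E2F8. An E2F site of the textbook form was searched as TTTCCCGC, TTTCGCGC, TTTGCCGC or TTTGGCGC on both strands. The shorter cores, TTTCGCG and TTTGGCG, were added after the windows had been seen, and they overlap the longer motifs. The windows of E2F1, E2F2, E2F3 and RBL1 held matches to both sets, and are shown for those matches. Capitals mark every match, on either strand.
E2F1: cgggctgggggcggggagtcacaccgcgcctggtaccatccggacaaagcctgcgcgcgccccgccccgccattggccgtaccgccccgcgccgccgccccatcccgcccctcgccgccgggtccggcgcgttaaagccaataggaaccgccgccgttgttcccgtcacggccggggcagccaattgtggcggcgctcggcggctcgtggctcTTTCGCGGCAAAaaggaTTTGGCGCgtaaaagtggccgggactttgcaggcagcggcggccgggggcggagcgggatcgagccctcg
E2F2: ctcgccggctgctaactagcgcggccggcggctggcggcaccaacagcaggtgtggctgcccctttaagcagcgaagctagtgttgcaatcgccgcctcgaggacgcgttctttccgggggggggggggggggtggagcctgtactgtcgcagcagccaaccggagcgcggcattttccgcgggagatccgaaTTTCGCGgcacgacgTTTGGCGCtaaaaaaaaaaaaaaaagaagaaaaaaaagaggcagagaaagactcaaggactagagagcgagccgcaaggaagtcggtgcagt
E2F3: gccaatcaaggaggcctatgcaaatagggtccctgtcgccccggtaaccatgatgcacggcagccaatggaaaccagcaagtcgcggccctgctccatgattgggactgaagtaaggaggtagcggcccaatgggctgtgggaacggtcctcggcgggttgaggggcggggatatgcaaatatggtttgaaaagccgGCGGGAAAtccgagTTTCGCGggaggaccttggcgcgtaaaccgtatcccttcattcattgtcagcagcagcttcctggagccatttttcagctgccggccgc
RBL1: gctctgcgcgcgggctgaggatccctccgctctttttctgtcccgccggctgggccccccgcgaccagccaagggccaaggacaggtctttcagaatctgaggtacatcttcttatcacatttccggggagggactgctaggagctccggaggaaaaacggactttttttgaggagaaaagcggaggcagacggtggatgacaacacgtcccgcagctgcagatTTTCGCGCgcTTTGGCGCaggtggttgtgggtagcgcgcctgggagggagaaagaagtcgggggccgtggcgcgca
The windows lie at chr20:33686336-33686635 on the minus strand for E2F1, chr1:23531184-23531483 on the minus strand for E2F2, chr6:20401629-20401928 on the plus strand for E2F3, and chr20:37095948-37096247 on the minus strand for RBL1. The first capital run of E2F1 starts 37 bases before the start site and joins TTTCGCG with TTTGCCGC on the other strand, and TTTGGCGC follows 20 bases before the start. In E2F2 the cores begin 57 and 42 bases before the start, and in RBL1 they begin 26 and 16 bases before it. E2F3 holds TTTCCCGC on the other strand at 53 bases and TTTCGCG at 39 bases before its upstream start, and no match at a second start that lies 1708 bases into the gene. The windows of E2F4, E2F6 and E2F7 held none of these letters. The one RB1 window lies 172724 bases into the gene, far from its main start, and held none either. Of all 35116 windows, 3.31% held a match to the longer motifs and 3.19% one to the cores. A match in letters is not a measured binding site.

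The libraries held between 21321850 and 25906275 counts, and members had between 742 (E2F8) and 3376 (E2F3) counts in a library. Libraries of a group differed by more than counting noise, with chi-square over degrees of freedom from 9.70 to 41.6 across genes. The non-coding RNA 7SK took between 0.439% and 0.716% of counts in non-targeting replicate 1 and mCherry-targeting replicates 1 and 2, and between 1.15% and 1.37% in the other libraries. This split crosses the groups, so each member is also given within it. Within each set 1 group has a lone library, non-targeting replicate 1 at low share and mCherry-targeting replicate 3 at high share. Among tested genes above a minimum mean level, fold changes followed GC content. The median log2 went from 0.23 at 35% to 40% GC (2041 genes) to -0.17 at 60% to 65% (1489 genes). Each member is therefore also given after a GC correction. The cell type was checked by 7 markers of HEK293 cells, all detected, from PAX2 at 9.59 and NEFM at 9.19 CPM (library-scaled counts) to VIM at 343 CPM over the 6 libraries. The proliferation marker MKI67 was at 448 CPM. Of markers of other cells, PTPRC, HBB, DCN and TTR had 0 counts in every library, and COL1A1 was at 14.4 CPM.

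Per transcript length, E2F1 had the highest level of the family and E2F5 the lowest. Levels between genes are CPM per kb of the longest annotated transcript, as mean and SD over the 6 libraries of both groups. E2F1 was at 42.7 ± 5.64 (SD, n = 6) and did not overlap the next gene, E2F4, at 31.8 ± 3.30. E2F3 followed at 24.9, between 22.3 and 29.6, and E2F2 at 22.1 ± 2.23. The range of E2F3 overlapped those of E2F4 and E2F2, but in 6 of 6 libraries E2F3 was below E2F4 and above E2F2. RBL1, at 18.0 ± 2.00, was above RB1, at 14.9 ± 2.15, in 6 of 6 libraries. The range of RBL1 overlapped those of E2F2 and RB1, and E2F2 was above RBL1 in 6 of 6 libraries. E2F7 at 13.3 ± 3.68, E2F8 at 12.5 ± 2.24 and E2F6 at 11.3 ± 0.465 overlapped one another, and RB1 overlapped E2F7. E2F5 was at 8.35 ± 0.917, below E2F6 in every library and without overlap. The mean of E2F1 was 5.12 times that of E2F5. With merged exon length in place of the longest transcript, RB1 and E2F7 changed places and the other 8 ranks did not change.

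**Figure D1:**
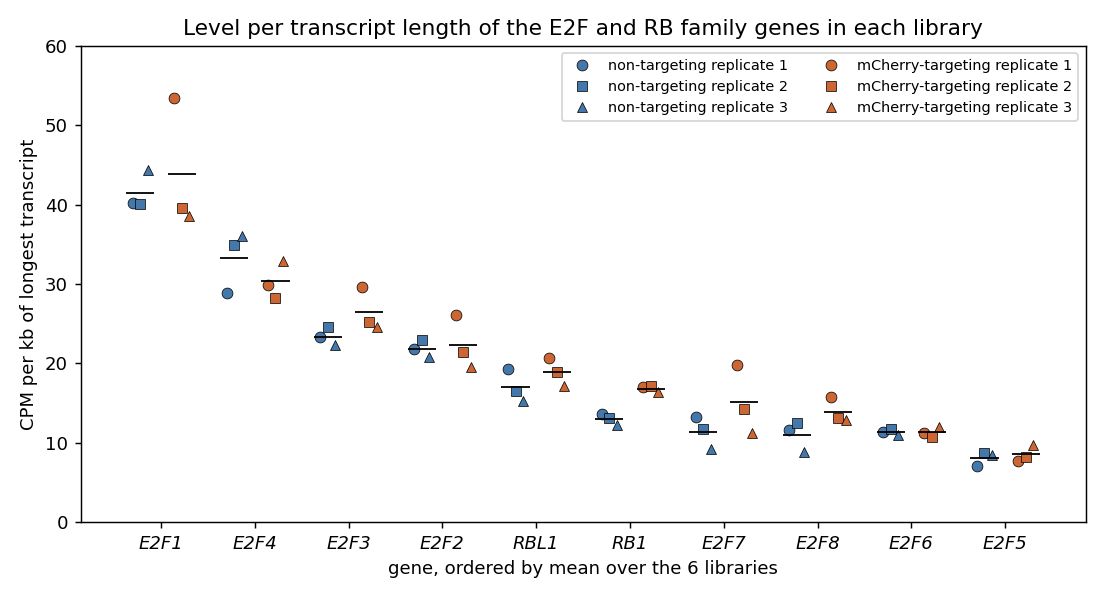
Level of each gene in CPM per kb of longest transcript (vertical axis, from 0) in the 3 non-targeting (blue) and 3 mCherry-targeting (orange) libraries; symbols give the replicate number and bars the group means. E2F1 is highest, with mCherry-targeting replicate 1 at 53.5, and for RB1 the 3 mCherry-targeting libraries all lie above the non-targeting ones.

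As a sum over E2F1, E2F2 and E2F3, the activators made up 53.6% ± 1.09 (SD, n = 3) of all E2F RNA per length in the non-targeting libraries and 53.7% ± 2.55 (SD, n = 3) in the mCherry-targeting ones. Activators over the canonical repressors E2F4 and E2F5 gave ratios of 2.37, 2.00 and 1.96 in the controls and 2.90, 2.36 and 1.94 with the mCherry crRNA, in order of replicate. The groups overlapped in this ratio.

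None of the 10 members changed by the test used, edgeR's quasi-likelihood test with p-values adjusted over the 19676 genes tested. That test called 0.0102% of all genes, namely HMOX1 and MAP1A, both lower, and DESeq2 called 1 member, RB1. In bulk RNA, fewer cells expressing a gene and less RNA per cell cannot be told apart. Without adjustment, 2 members had a p under 0.05, RB1 and E2F8, both higher with the mCherry crRNA. Of all genes tested, 10.0% were higher and 6.09% lower by that rule. A log2 fold change above 0 was found for 8 of 10 members, with a median of 0.12, against 49.4% of all genes and a median of -0.0037. In 3 members, E2F3, E2F8 and RB1, all mCherry-targeting libraries lay above all non-targeting ones, as they did for 12.6% of all genes. In 0 members they all lay below, as they did for 9.37% of genes.

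RB1 (ENSG00000139687.9, chr13:48303726-48599436 on GRCh38, plus strand) encodes pRB, the founding pocket protein and a tumour suppressor. Its level was 65.4, 63.1 and 58.7 CPM in the controls, replicates 1 to 3, and 81.6, 82.1 and 78.3 CPM with the mCherry crRNA; values of other genes are given in the same order. All mCherry-targeting libraries were above all non-targeting ones, and the spread within each group was small. The log2 fold change was 0.37 ± 0.08 (SE), a 1.29-fold higher level with a 95% interval from 1.15 to 1.46, at an unadjusted edgeR p of 0.000586 and an adjusted p of 0.193. Within the libraries of low 7SK share the log2 ratio was 0.32, and within those of high share 0.36. With mCherry-targeting replicate 1 left out it was 0.36.

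RB1 has a GC content of 37.3%, the lowest of the family, in the range where most genes were higher. After GC correction its log2 fold change was 0.13 ± 0.07 (edgeR adjusted p = 0.746), with a 95% interval from -0.028 to 0.29. It passed the threshold in 5 of 18 alternative fits, and in none of the 3 with a GC correction. DESeq2 gave an adjusted p of 0.0308, where 0.879% of all genes were called and 0.701% were called as higher. The adjusted p was 0.0233 with no filter on low counts and 0.0138 with a term for the 7SK split, where edgeR called 1.68% and 3.62% of genes. Without non-targeting replicate 1 it was 0.0129, where 8.98% of all genes were called. The remaining fit is a replicate block, which called RB1, E2F7 and E2F8 along with 6.14% of genes, although the replicate numbers were not taken as pairs.

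RBL1 (ENSG00000080839.7, chr20:36996349-37095995, minus strand) encodes p107, which is known to pair mainly with E2F4. It was at 109.6, 94.0 and 86.6 CPM in the non-targeting and 117, 107 and 97.6 CPM in the mCherry-targeting libraries. The groups overlapped, with a log2 fold change of 0.15 ± 0.10 (edgeR adjusted p = 0.488). It was 0.25 without non-targeting replicate 1, 0.075 without non-targeting replicate 3 and 0.087 without mCherry-targeting replicate 1. At its GC content of 40.0% the value after GC correction was -0.025 ± 0.077. Within the low and high 7SK sets the log2 ratio of RBL1 was 0.037 and 0.11. RB1 over RBL1 per length was 0.708, 0.796 and 0.804 in the non-targeting and 0.824, 0.906 and 0.952 in the mCherry-targeting libraries, without overlap, a ratio chosen after the values were seen. After GC correction it was 0.704, 0.812 and 0.843 against 0.799, 0.888 and 0.942, and the groups overlapped. RBL2, the gene of p130 and the remaining pocket protein, was at 119 ± 7.81 and 130 ± 8.11 CPM (SD, n = 3 each).

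Among the activators, E2F1 (ENSG00000101412.9, chr20:33675683-33686404, minus strand) had levels of 101, 100.2 and 110.9 CPM with the non-targeting crRNA. With the mCherry crRNA they were 134, 99.0 and 96.6 CPM. mCherry-targeting replicate 1 was the highest library and mCherry-targeting replicate 3 the lowest, so the groups overlapped fully. The log2 fold change was 0.080 ± 0.12 (edgeR adjusted p = 0.772) and its 95% interval ran from -0.18 to 0.34. Without mCherry-targeting replicate 1 it was -0.086. E2F2 (ENSG00000007968.6, chr1:23506430-23531220, minus strand) was at 114, 119 and 108 CPM against 135, 112 and 102 CPM. Its highest and lowest libraries were those of E2F1, and the log2 fold change was 0.033 ± 0.10, or -0.089 without mCherry-targeting replicate 1. These are the high-GC activators, at 62.5% and 57.5%, and after GC correction they were at 0.24 ± 0.12 and 0.16 ± 0.11 (edgeR adjusted p = 0.734 and 0.774). Before that correction the log2 ratio changed sign between the 7SK sets. It went from 0.21 in the low to -0.13 in the high set for E2F1 and from 0.12 to -0.16 for E2F2. The high set holds only mCherry-targeting replicate 3 of its group, before GC correction the lowest library for both genes. After that correction the log2 ratios in the low and high sets were 0.32 and 0.029 for E2F1, and 0.22 and -0.036 for E2F2. The lowest libraries were then non-targeting replicate 2 for E2F1 and non-targeting replicate 3 for E2F2.

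E2F3 (ENSG00000112242.10, chr6:20401906-20493715, plus strand), the activator with upstream and internal starts, was at 111, 117 and 106 CPM in the non-targeting and 140, 120 and 116.8 CPM in the mCherry-targeting libraries. The groups did not overlap, but mCherry-targeting replicate 3 exceeded non-targeting replicate 2 by less than 1 CPM. The log2 fold change was 0.18 ± 0.09 (edgeR adjusted p = 0.353), and 0.091 without mCherry-targeting replicate 1. After GC correction it was 0.12 ± 0.08, and within the low and high 7SK sets the ratio was 0.23 and 0.069. Counts per gene do not tell its starts apart. The intronic transcript E2F3-IT1, which lies within it on the same strand, had 117 to 211 counts in a library.

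E2F4 (ENSG00000205250.4, chr16:67192169-67198918, plus strand), the main pocket-protein-bound repressor, went the other way, at 75.5, 91.4 and 94.4 CPM in the non-targeting and 78.3, 73.8 and 86.1 CPM in the mCherry-targeting libraries. The groups overlapped, and the libraries of low 7SK share were the 3 lowest. Its log2 fold change was -0.13 ± 0.10 (edgeR adjusted p = 0.535) at a GC content of 59.3%, and 0.012 ± 0.084 after GC correction. Without non-targeting replicate 1 it was -0.23 (edgeR unadjusted p = 0.0175, adjusted p = 0.103), and it was -0.076 without non-targeting replicate 3 and -0.084 without mCherry-targeting replicate 2. Within the low and high 7SK sets its ratio was 0.0097 and -0.11. E2F5 (ENSG00000133740.6, chr8:85177225-85217158, plus strand) was at 35.9, 44.3 and 42.7 CPM against 38.7, 41.7 and 49.3 CPM. Its 3 libraries of low 7SK share were also the lowest, and the log2 fold change was 0.077 ± 0.11, or -0.15 ± 0.15 after GC correction. It was -0.0096 without non-targeting replicate 1 and -0.030 without mCherry-targeting replicate 3. Within the low and high 7SK sets the ratio of E2F5 was 0.17 and 0.18. RBIS overlaps its end on the opposite strand and had 694 to 1089 counts against 790 to 1161 for E2F5. Whether the counting used strand is not stated, so reads of the overlap may have been counted for either gene. E2F6 (ENSG00000169016.12, chr2:11444375-11466177, minus strand), which represses through a polycomb complex, varied least of the family. It was at 39.1, 40.5 and 37.9 CPM against 38.9, 37.1 and 41.4 CPM, with a log2 fold change of -0.0016 ± 0.088 and a 95% interval for the fold from 0.874 to 1.14. After GC correction E2F6 was at -0.074 ± 0.086, and within the low and high 7SK sets at -0.042 and 0.080.

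The atypical E2Fs varied most. E2F7 (ENSG00000165891.11, chr12:77021247-77065580, minus strand) was at 76.3, 67.5 and 52.8 CPM in the non-targeting and 114, 81.7 and 64.2 CPM in the mCherry-targeting libraries. The groups overlapped, since mCherry-targeting replicate 3 lay below non-targeting replicates 1 and 2. Its log2 fold change was 0.40 ± 0.21 (edgeR adjusted p = 0.393), the largest of the family with the widest interval, from -0.088 to 0.89, and it was 0.16 without mCherry-targeting replicate 1, 0.27 without non-targeting replicate 3 and 0.30 ± 0.19 after GC correction. E2F8 (ENSG00000129173.8, chr11:19224063-19241620, minus strand) was at 41.0, 44.0 and 31.3 CPM against 55.6, 46.1 and 45.2 CPM. The groups did not overlap, non-targeting replicate 3 was the lowest library, and the log2 fold change was 0.34 ± 0.13 (edgeR unadjusted p = 0.0229, adjusted p = 0.244). It was 0.30 ± 0.12 after GC correction, 0.24 without mCherry-targeting replicate 1 and 0.20 without non-targeting replicate 3. Within the libraries of low and of high 7SK share the log2 ratio of E2F8 was 0.31 and 0.26, while that of E2F7 was 0.36 and 0.094.

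**Figure D2:**
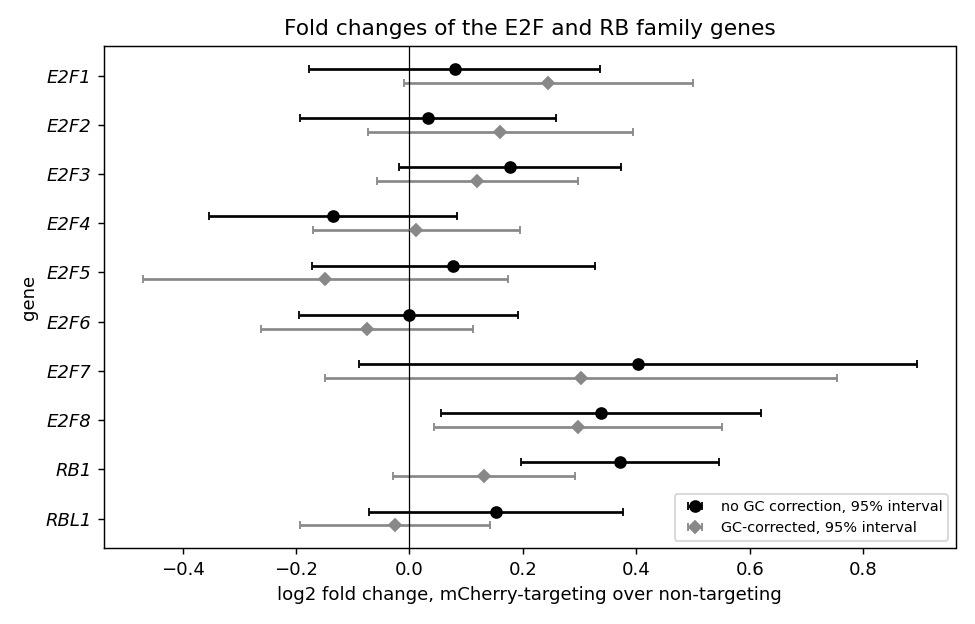
Log2 fold change of mCherry-targeting over non-targeting libraries (horizontal axis) for each gene, with 95% intervals of the edgeR fit, before (black) and after (grey) GC correction. RB1 moves from 0.37 to 0.13 with the correction, while E2F8 stays near 0.3.

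After GC correction edgeR called 0 members over all genes, as it called 0.00508% of genes, and 1 member had an unadjusted edgeR p under 0.05, E2F8, which was higher, against 3.46% of all genes in that direction. The members' median was 0.13 with 7 of 10 above 0. Of all 19676 genes tested 9255 were above 0, and their median was -0.012. The highest GC content in the family is that of E2F1, whose value was larger after correction, and the lowest that of RB1, whose value was smaller.

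Members also differed between libraries of the same group. E2F1, E2F2, E2F3, E2F7, E2F8 and RBL1 had their highest level in mCherry-targeting replicate 1, 6 of 10 members, where 21.1% of all genes tested had theirs. On the log2 scale that library exceeded the mean of the other 5 by 0.40 for E2F1, 0.29 for E2F2, 0.30 for E2F3, 0.75 for E2F7 and 0.43 for E2F8. After GC correction these were 0.51, 0.38, 0.24, 0.65 and 0.39, all 5 still with their highest level there, as had 17.3% of all genes. The value of RBL1 in that library went from 0.25 to 0.094. E2F4, E2F5 and E2F6 were not higher in it, at -0.099, -0.13 and -0.011. At the other end, E2F3, E2F7, E2F8, RB1 and RBL1 had their lowest level in non-targeting replicate 3, where 28.0% of all genes tested had theirs. In that library E2F7 and E2F8 deviated by -0.48 and -0.47 from their means on the log2 scale. After GC correction, E2F2, E2F7 and E2F8 were lowest there, 3 of 10 members, against 19.8% of all genes. The coefficient of variation over the 6 libraries was 27.7% for E2F7, 18.0% for E2F8 and 4.10% for E2F6, against a median of 10.4% over 12272 genes with a mean of at least 5 CPM. What sets mCherry-targeting replicate 1 apart was not tested.

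**Figure D3:**
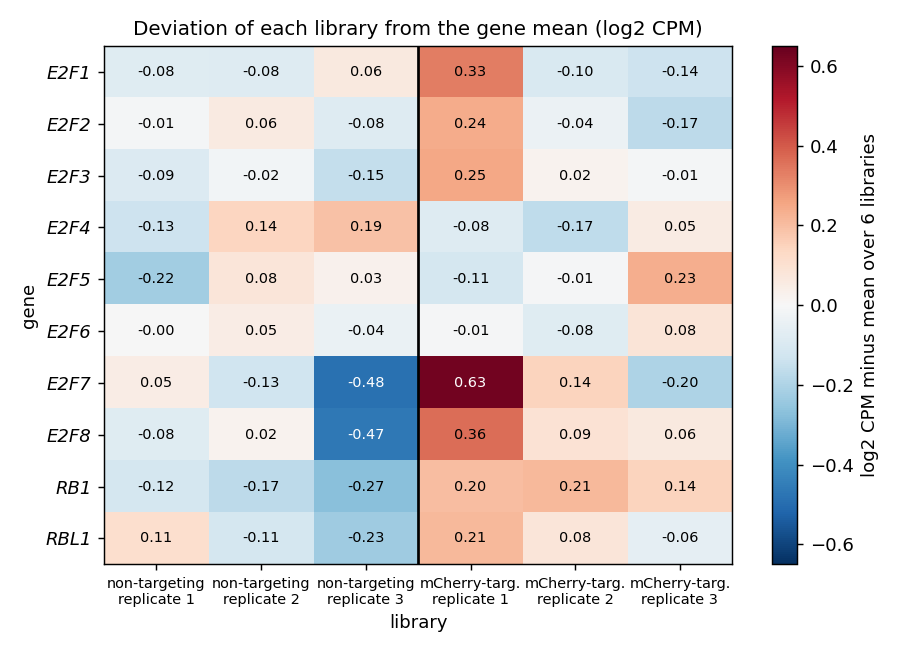
Deviation of each library (columns) from the mean of the gene over the 6 libraries, in log2 CPM, for the 10 genes (rows); red is above and blue below the mean. mCherry-targeting replicate 1 is the highest column for E2F1, E2F2, E2F3, E2F7, E2F8 and RBL1, and non-targeting replicate 3 is lowest for E2F7 at -0.48 and E2F8 at -0.47.

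The pathway around the family was described by lists of its partners, regulators and targets, chosen with earlier results of these data known. Over all these genes edgeR called 0 after adjustment, as it called 0.0102% of all genes. DESeq2 called 1 of them, ARID4A, where it called 0.879% of all genes. With no filter edgeR called 8 of them, where it called 1.68% of all genes. Genes named below beyond the pair with the smallest p in each list were chosen after their values were seen. The DNA-binding partners of E2Fs, TFDP1 and TFDP2, had log2 fold changes of -0.019 ± 0.089 and 0.0043 ± 0.076, and TFDP3 had 0 counts in every library. TFDP1 was at 55.0 and TFDP2 at 15.2 CPM per kb.

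The MuvB core joins p130 or p107 and E2F4 into the repressive DREAM complex, and later joins B-MYB and FOXM1 to activate mitotic genes. Of 7 genes in the list of MuvB subunits, B-MYB and FOXM1, 2 were higher and 2 lower at an unadjusted edgeR p under 0.05. The shares of all genes tested were 10.0% higher and 6.09% lower. The higher pair was LIN9 and LIN54, with log2 fold changes of 0.27 and 0.24, or 0.12 and 0.038 after GC correction. The lower pair was MYBL2, the gene of B-MYB, at 313 ± 29.7 and 259 ± 7.36 CPM, and FOXM1, at 219 ± 8.38 and 181 ± 18.1 CPM (SD, n = 3 each). For both, every library with the mCherry crRNA was lower than every control, as for 9.37% of all genes tested. Their log2 fold changes were -0.27 ± 0.09 each (edgeR adjusted p = 0.215 and 0.216). After GC correction they were at -0.12 ± 0.08 and -0.17 ± 0.09. FOXM1 was lowest in mCherry-targeting replicate 1, at 160 CPM, the library in which the activator E2Fs were highest. Of the mCherry-targeting libraries, MYBL2 was instead highest in replicate 1, at 267 CPM, against 253 and 255 CPM in replicates 2 and 3.

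Upstream, 2 of 9 cyclin and kinase genes were higher at an unadjusted edgeR p under 0.05 and 0 lower, with a median log2 fold change of 0.0034. By that rule 10.0% of all genes tested were higher and 6.09% lower. CCNE2, a G1/S cyclin gene and E2F target, was at 22.01, 22.4 and 15.3 CPM in the non-targeting and 34.5, 27.7 and 24.9 CPM in the mCherry-targeting libraries. The groups did not overlap, as for 12.6% of all genes tested in that direction. The order of its libraries matched that of E2F7 at both ends, highest in mCherry-targeting replicate 1 and lowest in non-targeting replicate 3. Its log2 fold change was 0.54 ± 0.16 (edgeR adjusted p = 0.200), and 0.30 ± 0.12 after GC correction. CDK6, a kinase that phosphorylates pocket proteins, was at 151 ± 18.6 and 184 ± 6.06 CPM (SD, n = 3 each), with a log2 fold change of 0.29 ± 0.10, and 0.10 ± 0.07 after GC correction. Of 7 CDK inhibitor genes 0 had an unadjusted edgeR p under 0.05, and 6 were below 0 with a median of -0.11. After GC correction 3 were below 0 and 4 above, with a median of 0.030. The smallest p-values were those of CDKN1C, at 3.38 ± 0.514 and 2.62 ± 0.0664 CPM, and CDKN1A, which encodes p21, at 47.0 ± 3.41 and 36.6 ± 12.2 CPM (SD, n = 3 each).

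Targets of E2F did not move as one block. Of 26 S phase genes 12 had a log2 fold change above 0, the median was -0.021, and 2 were higher and 1 lower at an unadjusted edgeR p under 0.05. Among all genes tested, 49.4% were above 0, and 10.0% were higher and 6.09% lower by that rule. POLA1, the catalytic subunit gene of DNA polymerase alpha, was at 146 ± 9.75 and 178 ± 13.3 CPM (log2 fold change 0.28 ± 0.09), and CDT1, a replication licensing factor, at 330 ± 31.2 and 282 ± 21.7 CPM (-0.23 ± 0.10), SD with n = 3 each. PCNA, the polymerase clamp gene, was the other higher one, with a log2 fold change of 0.24. After GC correction POLA1 was at 0.17 ± 0.07, PCNA at 0.18 ± 0.11 and CDT1 at -0.055 ± 0.089. Then 2 of the list, POLA1 and SLBP, were higher and 0 lower at an unadjusted edgeR p under 0.05. The shares of all genes after the correction were 3.46% higher and 3.30% lower. In mCherry-targeting replicate 1, 9 of the 26 had their highest level, and 10 had it in non-targeting replicate 3. For all genes tested the shares were 21.1% and 23.9%. The median deviation of the list from its gene means was 0.040 in the first and 0.053 in the second of these libraries, on the log2 scale. It was highest in non-targeting replicate 2, at 0.065. After GC correction the median deviation was highest in mCherry-targeting replicate 1, at 0.057. It was then 0.054 in non-targeting replicate 3 and 0.037 in non-targeting replicate 2.

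Of 18 mitotic target genes 5 were higher and 4 lower at an unadjusted edgeR p under 0.05, around a median log2 fold change of 0.057. By that rule 10.0% of all genes tested were higher and 6.09% lower. FBXO5, the gene of the APC/C inhibitor EMI1, was at 85.4 ± 4.68 and 107 ± 11.8 CPM, with a log2 fold change of 0.32 ± 0.09. PLK1, which encodes a kinase of mitotic entry, had 157 ± 13.1 and 123 ± 7.75 CPM (SD, n = 3 each), with -0.35 ± 0.09. The other higher genes were CDK1, TOP2A, CENPF and ECT2, at 0.25, 0.24, 0.38 and 0.30, and the other lower ones CCNB2, AURKA and CDC20, at -0.22, -0.21 and -0.33. The GC contents of FBXO5 and PLK1 are 34.2% and 57.1%, and after GC correction their values were 0.039 ± 0.098 and -0.22 ± 0.08. After GC correction 1 of the 18 was higher and 5 lower at an unadjusted edgeR p under 0.05, against 3.46% and 3.30% of all genes, and the median was -0.040. The higher one was CENPF, a kinetochore gene, at 0.23 ± 0.10, and the lower ones were PLK1, CDC20, AURKA and the mitotic cyclin genes CCNB1 and CCNB2. The median deviation of these mitotic genes in mCherry-targeting replicate 1 was -0.049, and the lowest was -0.078 in non-targeting replicate 3. After GC correction mCherry-targeting replicate 1 was the lowest, at -0.14, and non-targeting replicate 3 the highest, at 0.096.

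In the list for E2F protein turnover, which holds genes of ubiquitin ligases and of the deubiquitinase USP11, 4 of 5 were lower at an unadjusted edgeR p under 0.05, as were 6.09% of all genes. The list had a median of -0.27 at a median GC content of 57.6%. Tested genes of 55% to 60% GC above a minimum mean level had a median of -0.15. Among them the APC/C activators CDC20 and FZR1 had log2 fold changes of -0.33 ± 0.10 and -0.27 ± 0.08 (edgeR adjusted p = 0.201 and 0.208), and CCNF and USP11 had -0.30 and -0.21. After GC correction CDC20 and FZR1 were at -0.19 ± 0.08 and -0.10 ± 0.08. Then 1 of the 5, CDC20, was lower by the same rule, as were 3.30% of all genes. Without the correction, 10.0% of all genes were higher and 6.09% lower by that rule, the shares for the lists that follow. Of 10 corepressor genes of pRB 2 were higher and 0 lower, ARID4A at 0.48 ± 0.12 and ARID4B at 0.42 ± 0.15 (edgeR adjusted p = 0.194 and 0.240). After GC correction they were at 0.25 ± 0.09 and 0.23 ± 0.11. Of 9 genes of the E2F6 polycomb complex 2 were higher, CBX3 and RNF2, at 0.26 ± 0.08 and 0.19 ± 0.08, and after GC correction at 0.069 ± 0.082 and -0.036 ± 0.089. Of 9 checkpoint and apoptosis targets 2 were higher, the caspase activator gene APAF1 at 0.31 ± 0.10 and the polycomb methyltransferase gene EZH2 at 0.27 ± 0.09, and after GC correction at 0.17 ± 0.08 and 0.15 ± 0.07.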

How the data were processed

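The values the authors deposited are unnormalized counts of reads per gene in each library. Tools named in the submitters' processing notes are cutadapt 4.4 and STAR 2.7.4a, and the build named is hg19 (GRCh37). Neither the counting tool nor its use of strand is given in the sources used here. Per the labels' protocols, poly(A) RNA was primed at random after fragmentation and the libraries keep strand. Identifiers were matched without version to GENCODE on GRCh38, which gave symbols for 52338 of 57820, and all coordinates are GRCh38. Transcript GC content was known for 96.0% of tested genes.

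The test was that of edgeR 4.0.16, run in R 4.3.3 (TMM, filterByExpr, robust quasi-likelihood fit, group as the only term, Benjamini-Hochberg over 19676 genes, adjusted p under 0.05). The common biological coefficient of variation was 0.113. CPM are TMM-scaled. SE and intervals come from the fit. The GC correction removed a loess trend (span 0.5) of log2 CPM on GC content from each library as an offset. The fit was tested on simulated data. Alternatives were other size factors, filters, DESeq2 1.42.0, limma-voom (limma 3.58.1), a replicate block, a 7SK split at 1% of counts, and leaving out each library. Named genes are all members and the 2 list genes with the smallest p in each list, plus others named after their values were seen. Of 114 list genes 113 were in the table and 112 were tested. Members and lists were chosen with earlier results of these data known.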

Additional observations from a re-analysis of the deposited data

How the results depend on the processing

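edgeR called 2 genes, 0 members and 0 pathway genes. With no filter these were 597, 1 and 8, by DESeq2 173, 1 and 1, and with a term for the 7SK split 712, 1 and 8. Leaving out each library gave 1 to 1806 genes, 0 to 1 members and 0 to 20 pathway genes, with the highest counts without non-targeting replicate 1, after which a low 7SK share occurs in mCherry-targeting libraries only. Unscaled library sizes, a filter at a mean of 5 CPM and the GC correction each called 1 gene, and the GC correction with the 7SK term called 43. Members higher at an unadjusted p under 0.05 numbered 2, against 10.0% of all genes by the edgeR test used. With the GC correction they numbered 1, against 3.46%. They numbered 3 with no filter, by DESeq2 and with the GC correction and block, and 1 to 3 without a library. Members lower numbered 0, against 6.09% of all genes, and 3.30% with the GC correction. Without a library they numbered 0 to 1, the 1 being E2F4 without non-targeting replicate 1. Shares of all genes at this threshold are not given for the other fits.

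The sign of some small log2 fold changes turned. E2F6 was at 0.014 with unscaled library sizes, 0.0030 with the filter at 5 CPM and 0.019 with the 7SK term. E2F2 was then at -0.020 and TFDP1 at 0.041. With the GC correction E2F4 was at 0.012, E2F5 at -0.15, RBL1 at -0.025 and RNF2 at -0.036, and with the 7SK term added E2F4 was at 0.073, E2F5 at -0.0038, RBL1 at -0.070 and TFDP1 at 0.029. Without a library E2F1 ranged from -0.086 to 0.16, E2F2 from -0.089 to 0.12, E2F5 from -0.030 to 0.15, E2F6 from -0.047 to 0.036 and TFDP1 from -0.082 to 0.034. Apart from the settings named, the cause was not tested.

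A replicate block called 1209 genes, 6.14% of those tested. Among them were 3 members (RB1, E2F7 and E2F8, edgeR adjusted p = 0.0134, 0.0166 and 0.0439) and 16 pathway genes. With the block 5 members were higher at an unadjusted p under 0.05, and the share of all genes is not given. The numbers were not taken as pairing the libraries. Deviations of same-numbered libraries correlated at 0.39, -0.051 and 0.62, and non-targeting replicate 2 correlated best with mCherry-targeting replicate 3, at 0.19. With the block and the GC correction edgeR called 6 genes, and E2F4 was at 0.014, E2F5 at -0.14, RBL1 at -0.026 and RNF2 at -0.035. Each group has 3 libraries, and each member at least 742 counts in a library.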
